A study of Homo sapiens with 24 samples.

Results

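In HEK cells given a DNA minor groove binding ligand, radiation or both, 3468 of 39400 human probes lay above the plant control oligos on every array of the first and second replicate numbers, once the brightest probes were left out. They were chosen by their own measured intensities. A probe entered when its intensity exceeded the 95th percentile of the plant control spots on the same array, on all 8 arrays of numbers 1 and 2 that carry the probe. The 300 probes per array letter with the highest mean intensity rank over the 3 untreated arrays were then removed. The set therefore holds probes above the floor in numbers 1 and 2, and that brightness is how they were picked and not a result. The removal acted on the mean untreated rank alone, so a detected probe can still be among the brightest spots of a single array. They are called the detected probes here. In limma, 0 of the 3468 passed an adjusted p of 0.05 in any of the 8 comparisons of treatments. Their radiation differences were wide in number 2, where 460 of them (13.3%, against 7.61% of all probes) lay beyond 2-fold both with and without the ligand, each in one direction. In number 1 there were 3 beyond 2-fold in both (0.0865%, against 0.277%), and in number 3 there were 34 (0.98%, against 0.603%). Numbers 1 and 2 also chose these probes, so the shares there describe the set and test nothing.

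As background, ligands of the DNA minor groove lie along the shallow groove of the double helix, often over stretches rich in A and T, and some of them alter how much damage radiation leaves in DNA. Ionizing radiation breaks DNA strands. Cells answer through damage kinases and through transcription factors such as p53, which raises the transcription of genes for cell cycle arrest, repair and cell death within hours. Plant control oligos match no human transcript, so the signal on them measures non-specific binding and gives a floor below which a human probe cannot be told from cross-hybridization.

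The arrays measured cells of HEK, a line derived from human embryonic kidney, that had been plated 24 h before treatment. The 4 groups were cells given the ligand at 50 uM, cells given 2 Gy radiation, cells given the same ligand dose 1 h ahead of 2 Gy, and untreated cells, all with RNA taken 4 h after treatment. Each group had 3 replicate numbers, and each number had a single-colour Cy3 array of letter A and another of letter B, 24 arrays in all. The letters carry different probes, 19700 each, so n = 3 samples per group for every probe. No label names the compound, and the groups stand for 1 cell line, 1 dose of each agent and 1 time. No label says that the numbers were separate cultures, so a p-value here reflects how far these samples scatter, possibly for technical reasons, and the number of arrays limits the precision. The deposited files pair no probe with a gene, and 0 of the 3468 identifiers were found in the human gene table. The running number inside the identifier equals the digits of some gene ID for 138 of them, which names no gene because nothing in the files says that these numbers are gene IDs. Neither the kidney origin of the cells nor the p53 response could therefore be checked on named genes.

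The 208 plant control spots per array were copies of 13 sequences. Their 95th percentile on letter A was 891 and 970 in ligand-treated cells of numbers 1 and 2, 863 and 329 after radiation, 811 and 331 after both, and 863 and 1014 in untreated cells. On letter B it was 697 and 671 in ligand-treated cells, 625 and 266 after radiation, 696 and 394 after ligand and radiation, and 678 and 809 in untreated cells. Among these arrays, the irradiated ones of number 2 had the lowest thresholds on both letters and the lowest median intensities. Relative to the median probe of its own array, the threshold lay between 1.27 and 1.67 times on letter A and between 1.33 and 2.11 times on letter B. The highest ratio belonged to the array of ligand and radiation in number 2 on letter B.

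On letter A 2459 probes passed on all 8 arrays, of which 295 were among the brightest and were removed, leaving 2164 (10.985% of the probes of the letter). On letter B 1602 passed and 298 were removed, leaving 1304 (6.62%). Another 648 probes on letter A and 909 on letter B passed on 7 of 8 arrays, whereas 52.4% and 54.6% of probes passed on none. Of the 909, 697 failed on the letter B array of ligand and radiation in number 2 alone. Without that array letter B would hold 2000 detected probes in place of 1304, so this array set the size of the letter B set. All 3468 had a measured value on all 12 arrays of their letter. They were spread over every part of the array, with 15 to 68 in each of the 48 runs of 420 neighbouring spots on letter A (median 49.5) and 18 to 39 on letter B (median 26).

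The probes nearest the limits show how fine the choice is. On letter A, obshum40K:A#38149 entered with an intensity of 329.1 against a threshold of 329.0 on the radiation array of number 2, and obshum40K:A#14628 did not, at 969.5 against 969.6 on the ligand array of number 2. On letter B, obshum40K:B#12751 entered at 625.3 against 625.2 on the radiation array of number 1, and obshum40K:B#26592 did not, at 394.1 against 394.2 on the array of ligand and radiation in number 2. At the bright end, obshum40K:A#14543 was kept with a mean untreated rank of 18982 and obshum40K:A#01404 was removed with 18985. On letter B, obshum40K:B#22371 was kept at 19141 and obshum40K:B#15105 removed at 19143.

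Some arrays stood apart before any treatment was compared. Across the detected probes, the irradiated arrays of number 2 had a median Spearman correlation with the arrays of number 1 of 0.805 (letter A) and 0.736 (letter B), all treatments pooled. With the untreated and ligand arrays of their own number it was 0.420 and 0.391. Those untreated and ligand arrays correlated at 0.934 and 0.945 with each other but at medians of 0.392 and 0.450 with number 1. Within number 2, the arrays thus divided by irradiation, and its untreated and ligand arrays were about as far from its irradiated ones as from number 1. The division was shallower over all probes, where irradiated and other arrays of number 2 correlated at medians of 0.722 and 0.753. The points of each correlation are probes that share arrays, runs of spots and the choice of the set. Radiation results are therefore given below with and without number 2.

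Number 3, which had no part in the threshold (its untreated array entered the rank that removed the brightest probes), also ordered the detected probes differently. Its arrays correlated with each other at medians of 0.866 and 0.878 across the detected probes, but with those of number 1 at 0.265 on letter A and 0.0614 on letter B. Over all probes the correlation with number 1 was higher, at medians of 0.455 and 0.478. Levels also varied with position on the array. Averaged over the 4 arrays of a number, the medians of the 48 runs of spots for the detected probes of letter A spanned 3.22 log2 units in number 3 and 0.64 in number 1. On letter B the spans were 2.07 and 1.13. Computed within runs, the correlation between numbers 3 and 1 had a median over the 48 runs of 0.422 (letter A) and 0.272 (letter B), against 0.293 and 0.0725 with the runs pooled. Over all probes it was 0.703 and 0.730 within runs, against 0.482 and 0.501 pooled.

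The detected probes were bright in number 3 as well, but less uniformly so. Their median lay at percentiles 76.5 to 79.7 of all probes on the 4 letter A arrays of number 3, and at percentiles 89.3 to 90.3 on letter B. In numbers 1 and 2, whose arrays chose them, the medians ran over percentiles 88.8 to 91.5 on letter A and 93.1 to 94.2 on letter B. On the number 3 arrays 79.5% to 83.1% of the detected probes of letter A exceeded the median of their array, and 91.9% to 93.4% of those of letter B. The shares above the 90th percentile of their array were 23.5% to 27.0% on letter A and 46.7% to 51.1% on letter B. In raw brightness the detected probes of letter A had a median intensity of 357 in ligand-treated cells, 59.0 after radiation and 322 after both, against 449 in untreated cells of number 3. The radiation array there was dim throughout, with 32.5 as the median of its other probes.

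From here on, values are log2 intensities after quantile normalization, which gives the arrays of a letter one common distribution. How the detected probes varied was divided among replicate number and the 2 treatments by sums of squares over the 12 arrays of each letter. Replicate number held 77.3% of it, radiation 4.98%, the ligand 1.19% and their interaction 1.27%, with 15.3% left over. For the 35812 other probes measured on every array, number held 60.4%, radiation 6.75%, the ligand 3.16%, the interaction 3.42% and the rest 26.3%. The rule asked the detected probes to be bright in numbers 1 and 2 but not in number 3. Their medians on letter A were 9.75 to 10.04 there and 9.03 to 9.17 in number 3. On letter B they were 9.93 to 10.09 and 9.53 to 9.62. Such a fall counts toward number, so its larger share can follow in part from the choice. How much does so was not tested. With numbers 1 and 2 alone, radiation held 26.7% of the variation of the detected probes. The part of radiation that differed between the 2 numbers held 28.0%, number itself 34.0%, the ligand 3.04%, the interaction 3.51% and the rest 4.64%. Radiation and its difference between the numbers thus held like shares, and the values by number below show that number 2 carried them.

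Steady detected probes existed under all treatments. The steadiest of letter A over numbers 1 and 2 was obshum40K:A#12962, with a standard deviation of 0.0492 log2 units. Its levels were 9.90 and 9.85 in ligand-treated cells, 9.96 and 9.91 after radiation, 9.97 and 10.002 after ligand and radiation, and 9.88 and 9.93 in untreated cells. In number 3 they were 10.05 with the ligand, 9.51 after radiation and 9.22 after both, against 10.04 untreated. Both irradiated arrays thus lay lower there, by more than the whole range of numbers 1 and 2. The radiation array of letter A in number 3 was the dim one, where this probe had an intensity of 81.5. On letter B, obshum40K:B#37618 had a standard deviation of 0.0575 over numbers 1 and 2. Its levels were 9.85 and 9.96 with the ligand, 9.94 and 9.85 after radiation, 9.86 and 9.78 after both, and 9.87 and 9.83 untreated. In number 3 it read 10.44, 10.25 and 10.30 in those treated cells and 10.67 in untreated cells. Both were picked for a small spread in numbers 1 and 2, so only their number 3 values are free of that choice. The median standard deviation over these 8 arrays was 0.320 for the detected probes of A and 0.290 for those of B, against 0.323 and 0.292 for the other probes.

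Ligand-treated cells were set against untreated cells to see what the compound does by itself. The detected probes differed little between these groups. The log2 differences had a median of 0.03 and a standard deviation of 0.188 across the 3468, against 0.233 over all probes. In limma 0 of 3468 passed an adjusted p of 0.05, as for 0% of all probes. At an unadjusted p under 0.05 there were also 0, where the share over all probes was 0.114%. With replicate number as a block, which absorbs shifts that all arrays of a number share, 24 did so, 11 higher and 13 lower (0.692%, against 0.99% of all probes). Beyond 2-fold lay 4, of which 1 was higher (0.115%, against 0.645% of all probes). By number, the standard deviation of the differences was 0.247, 0.231 and 0.410, so number 3 was the widest. The difference had one sign in all 3 numbers for 1004 detected probes (29.0%), 650 higher and 354 lower, against 28.5% of all probes. Among all probes 6255 were higher and 4988 lower. Across the 3468, the differences of numbers 1 and 2 had a Spearman correlation of 0.151, those of 1 and 3 of 0.0535 and those of 2 and 3 of 0.0309.

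Irradiated cells were set against untreated cells to see the response to 2 Gy after 4 h. The differences of the detected probes were wider than for the ligand, and number 2 supplied most of that width. Their standard deviation was 0.364 across probes in the mean of the 3 numbers, and 0.314, 0.899 and 0.561 in numbers 1, 2 and 3. In number 2, 227 were more than 2-fold higher and 361 more than 2-fold lower after radiation (17.0%, against 12.3% of all probes), whereas number 1 had 12 and 28 (1.15%, against 3.39%) and number 3 had 88 and 141 (6.60%, against 3.99%). Among all probes 2611 were more than 2-fold higher and 2247 lower in number 2. Those counts were 471 and 862 in number 1, and 652 and 917 in number 3. The dim radiation array of letter A enters all of the letter A values of number 3. With the authors' normalized values, the number 3 share beyond 2-fold was 57.4%, against 34.7% of all probes. In limma 0 of 3468 passed an adjusted p of 0.05 (0% of all probes). An unadjusted p under 0.05 was reached by 11, of which 4 were higher (0.317%, against 0.764%), and with the replicate block by 205, of which 85 were higher (5.91%, against 5.92%). Beyond 2-fold in the mean lay 70, of which 28 were higher (2.02%, against 2.01%), and without number 2 there were 34, of which 19 were higher (0.98%, against 1.35%). One sign in all 3 numbers was seen for 817 (23.6%, against 27.0% of all probes). The differences of numbers 1 and 2 had a correlation of -0.109, those of 1 and 3 of 0.107 and those of 2 and 3 of 0.000154.

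Ligand and radiation together were compared with no treatment. This comparison shares its untreated arrays with the previous ones, so its values are set beside theirs and not counted as a second observation. The pattern by number was that of radiation alone, with standard deviations of 0.323, 0.882 and 0.535 in numbers 1, 2 and 3, and 219 detected probes more than 2-fold higher and 371 lower in number 2 (17.0%, against 12.9% of all probes). Among all probes 2793 were more than 2-fold higher and 2265 lower in number 2. None of the detected probes passed the adjusted p in limma (0 of 3468, and 0% of all probes). An unadjusted p under 0.05 was reached by 8, of which 2 were higher (0.231%, against 0.536%). With the replicate block it was reached by 112, of which 31 were higher (3.23%, against 4.14%). Beyond 2-fold in the mean lay 76, of which 37 were higher (2.19%, against 2.56%), and without number 2 there were 30, of which 21 were higher (0.865%, against 1.36%). One sign in all 3 numbers was seen for 740 (21.3%, against 21.9% of all probes).

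Ligand and radiation were compared with radiation alone to ask whether the ligand, given first, alters what follows irradiation. In this comparison both groups of number 2 are irradiated, and the differences in number 2 were no wider than in number 1. The standard deviations over the detected probes were 0.352, 0.330 and 0.590 in numbers 1, 2 and 3. In number 3, 198 detected probes were more than 2-fold higher and 85 lower after ligand and radiation than after radiation alone (8.16%, against 5.41% of all probes), and the dim radiation array of letter A enters all of the letter A values there. The adjusted p was passed by 0 of 3468 in limma (0% of all probes). Unadjusted, 12 were under 0.05, of which 5 were higher (0.346%, against 1.02%), and with the block 135 were, of which 49 were higher (3.89%, against 6.79%). Beyond 2-fold lay 19, of which 14 were higher (0.548%, against 1.45%). One sign in all 3 numbers was seen for 1087 (31.3%, against 32.9% of all probes), and 770 of these were lower with the ligand. Among all probes 8087 of 12919 were lower. With each run of spots centred on its median before normalization the share was 25.5%, against 26.4% of all probes. The differences of numbers 1 and 2 had a correlation of 0.201 as normalized and 0.0944 with runs centred.

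Ligand and radiation set against the ligand alone gives the effect of 2 Gy in cells that already held the ligand. The width again came from number 2, with standard deviations of 0.378, 0.898 and 0.542 in numbers 1, 2 and 3. Here too 0 of 3468 passed the adjusted p in limma (0% of all probes). Unadjusted, 6 were under 0.05, of which 4 were higher (0.173%, against 0.556%), and with the block 161 were, of which 34 were higher (4.64%, against 4.87%). Beyond 2-fold lay 87, of which 38 were higher (2.51%, against 2.74%), and without number 2 there were 29, of which 20 were higher (0.836%, against 1.4%).

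The radiation difference can be taken in each number once with and once without the ligand, from arrays that the 2 differences do not share. In number 2 these differences had a Spearman correlation of 0.863 over the 3468 detected probes, and 0.588 over all probes. A total of 460 detected probes lay beyond 2-fold in both (13.3%, against 7.61% of all probes). All 460 had the same sign in both, 171 higher and 289 lower after radiation. Among all probes 2990 lay beyond 2-fold in both, and 2927 of them had the same sign, 1708 higher and 1219 lower. The rule used these same arrays and kept only probes above the floor on them. The contrast with all probes in number 2 is therefore a description and may follow in part from the choice. In number 1 the correlation was 0.130 and 3 detected probes lay beyond 2-fold in both (0.0865%, against 0.277%), of which 1 had one sign. In number 3 it was 0.0727 and 34 did so (0.98%, against 0.603%), of which 23 had one sign. With the authors' normalized values it was 0.172 in number 3 and 210 did so (6.06%, against 2.67%), of which 166 had one sign. The irradiated arrays of number 2 are thus alike in these probes and unlike their unirradiated counterparts, which numbers 1 and 3 do not show. The irradiated arrays of number 2 are also those that resemble number 1, while the untreated and ligand arrays of number 2 do not. Which pair of arrays departs for a reason other than radiation was not tested. The ligand difference, taken once with and once without radiation, had correlations of -0.223, 0.103 and -0.0974 in numbers 1, 2 and 3.

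The interaction asks whether the ligand acts differently in irradiated cells. No detected probe passed the adjusted p in limma (0 of 3468, and 0% of all probes). Unadjusted, 1 was under 0.05, which was lower (0.0288%, against 0.475%), and with the block 69 were, of which 26 were higher (1.99%, against 3.92%). Beyond 2-fold lay 39, of which 30 were higher (1.13%, against 2.77%). The standard deviation of the interaction over the detected probes was 0.330, against 0.416 over all probes.

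Averaged over the other treatment, each factor is estimated from 6 arrays against 6. For the ligand 0 of 3468 passed the adjusted p (0% of all probes). An unadjusted p under 0.05 was reached by 4, of which 1 was higher (0.115%, against 0.256%), and with the block by 55, of which 20 were higher (1.59%, against 2.37%). Beyond 2-fold lay 1, which was lower (0.0288%, against 0.299%). For radiation 0 passed as well (0% of all probes). An unadjusted p under 0.05 was reached by 26, of which 13 were higher (0.75%, against 0.934%). Beyond 2-fold lay 61, of which 25 were higher (1.76%, against 1.46%). With the replicate block 362 detected probes reached the unadjusted p, 83 higher and 279 lower (10.4%, against 7.35% of all probes). Among all probes 1225 were higher and 1671 lower. The lowest adjusted p among the detected probes was 0.647 in that limma fit, and 0.477 over all the fits tried. Without number 2 the count of detected probes with the block was 119, 56 higher and 63 lower (3.43%, against 3.27%). The excess of lower detected probes thus went with number 2, whose arrays also chose them. It is a description and may follow in part from the choice, which was not tested.

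Without a block, these comparisons were less precise for the detected probes than for the array as a whole. The median standard error of a pairwise log2 difference was 0.47 for the detected probes and 0.37 for all probes. With the replicate block it was 0.225 for the detected probes and 0.215 for all probes.

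Number 3 served as a check on probes that moved alike in numbers 1 and 2. A detected probe entered this check when its difference had the same sign and exceeded 1 log2 unit in both numbers, a count without a test. For the ligand against no treatment there were 0, against 21 among all probes. For radiation against no treatment there were 6, 2 higher and 4 lower. In number 3, 4 of the 6 had the same sign and 0 exceeded 1 log2 unit, and with the authors' normalized values 1 of 6 had the same sign. For ligand and radiation against no treatment there were 6, all higher, of which 1 had the same sign in number 3. For ligand and radiation against radiation alone there were 4, of which 3 had the same sign and 2 exceeded 1 log2 unit in number 3. For ligand and radiation against the ligand there were 16, 14 higher and 2 lower, of which 5 had the same sign and 0 exceeded 1 log2 unit. Among all probes the same check gave 60 of 113, 52 of 143, 67 of 137 and 92 of 250 with the same sign, in the order of the last 4 comparisons. The same sign and more than 1 log2 unit in number 3 were seen for 2, 5, 7 and 11 of them. With the authors' normalized values, 48 of 154 among all probes had the same sign for radiation against no treatment.

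At a lower limit of 0.5 log2 units more probes entered. For radiation against no treatment 46 of 74 detected probes had the same sign in number 3 (62.2%, against 56.5% among all probes). That share turned to a minority under other normalizations, at 9 of 27 with runs of spots centred (33.3%, against 43.4%) and 24 of 73 with the authors' normalized values (32.9%, against 31.8%). For ligand and radiation against no treatment it was 30 of 79 (38.0%, against 37.1%). For ligand and radiation against radiation alone it was 26 of 51 (51.0%, against 46.2%), against the ligand alone 50 of 135 (37.0%, against 37.8%), and for the ligand against no treatment 4 of 7.

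Individual detected probes show what lies behind these counts. They were picked from numbers 1 and 2 alone, as those with one sign in all 4 matched differences and the highest or lowest mean, so their values in those numbers are a description. One sign in all 4 radiation differences was seen for 626 detected probes, 190 higher and 436 lower (18.1%, against 18.5% of all probes). One sign in all 4 ligand differences was seen for 515, 240 higher and 275 lower (14.9%, against 13.6%).

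The highest radiation difference belonged to obshum40K:A#13149. Its levels in numbers 1, 2 and 3 were 14.43, 14.59 and 14.28 after radiation, 14.18, 14.70 and 13.32 after both, 14.06, 9.78 and 14.05 with the ligand, and 13.76, 9.79 and 14.80 in untreated cells. Only the ligand and untreated arrays of number 2 were low, at intensities of 1365 and 1391, and elsewhere the irradiated and unirradiated arrays overlapped. In number 1 its intensity was 65223 after radiation, 44851 after both and 65420 with the ligand, against 63655 in untreated cells, so 3 of the 4 arrays lay close together just below 65535, the limit of a 16-bit scan. Other detected probes of letter A exceeded that limit in number 1, up to 172176, so the deposited values were not all capped there. Saturation was not tested, and the number 1 differences of this probe carry that limit. Averaged over the ligand, the difference was 1.54 ± 0.93 (SE, n = 3 per group; limma adjusted p = 0.99997). In number 3, which had no part in the choice, it was -0.63, and in a fit without number 2 it was -0.11, the opposite direction. With the replicate block the difference was 1.54 ± 0.80 (limma adjusted p = 0.651), and -0.11 ± 0.29 without number 2. Of 6 matched pairs, 4 were higher after radiation.

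The lowest radiation difference belonged to obshum40K:B#33439. Its levels were 9.72, 9.94 and 9.88 after radiation and 9.91, 9.96 and 10.41 after both, against 10.04, 15.53 and 10.34 with the ligand and 10.07, 14.95 and 10.44 in untreated cells. Here the same 2 arrays of number 2 were high, and the other 10 lay between 9.72 and 10.44. The difference averaged over the ligand was -1.92 ± 1.04 (SE; limma adjusted p = 0.99997), with 5 of 6 pairs lower. In number 3 it was -0.24, and without number 2 it was -0.24 ± 0.21. With the replicate block it was -1.92 ± 0.81 (limma adjusted p = 0.647), and -0.24 ± 0.11 without number 2.

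For the ligand the highest difference belonged to obshum40K:B#14668. Its levels were 9.48, 9.66 and 10.14 with the ligand and 9.80, 13.07 and 9.93 with ligand and radiation, against 9.09, 9.53 and 9.48 after radiation and 9.37, 9.52 and 10.11 in untreated cells. A single array, ligand and radiation in number 2, was high, and the other arrays with and without the ligand overlapped. The difference averaged over radiation was 0.83 ± 0.50 (SE; limma adjusted p = 0.99998), and 6 of 6 pairs were higher with the ligand. In number 3 it was 0.24, and without number 2 it was 0.33. With the replicate block it was 0.83 ± 0.46 (limma adjusted p = 0.99994), and 0.33 ± 0.14 without number 2.

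The lowest ligand difference belonged to obshum40K:B#32246. Its levels were 9.42, 8.94 and 9.12 with the ligand and 10.34, 10.42 and 9.01 with ligand and radiation, against 11.37, 11.46 and 10.25 after radiation and 11.29, 9.004 and 10.50 in untreated cells. In irradiated cells the arrays with the ligand reached 10.42, and of those without it only number 3, at 10.25, lay within their range. Among unirradiated cells the untreated array of number 2 was as low as the ligand arrays. The difference averaged over radiation was -1.10 ± 0.41 (SE), lower with the ligand in 6 of 6 pairs. Its unadjusted limma p was 0.0211 and its adjusted p was 0.99998, so it did not pass. In number 3 it was -1.31, and without number 2 it was -1.38 ± 0.42. With the replicate block it was -1.10 ± 0.36, and -1.38 ± 0.18 without number 2. Of the 4 probes named here, it had the widest difference in number 3, and its lowest adjusted p over the limma alternatives tried was 0.937.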

How the data were processed

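Labelled RNA of 12 samples (4 treatments, 3 replicate numbers) was read on 24 single-colour arrays. Per the file headers, the authors deposited 1 column per array, linear intensities of the spots. Sources used here name no scanner, background step or scaling. The authors also deposited normalized log2 values of the same arrays, used as an alternative.

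The choice of the detected probes and the other lists was made with earlier results of these data known. Values marked not detected counted as missing. Log2 intensities were quantile normalized within each letter with no offset. R 4.3.3 with limma 3.58.1 (lmFit, eBayes) fitted all 12 arrays of a letter together, with 1 estimate of spread and no block. Benjamini-Hochberg adjustment ran over all 39400 probes in each of 8 comparisons. Number 3 arrays list no control spots here, and their probes were placed by identifier in the print order of numbers 1 and 2. The probes named are the detected probes with the highest and lowest mean of 4 matched differences of one sign in numbers 1 and 2, for radiation and for the ligand. Probes nearest each limit and of smallest spread are named too.

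Pairing by replicate number was checked from deviations from the group means. Over all probes, the lowest correlation between arrays of one number was 0.221 on letter A and 0.2 on letter B. The medians were 0.667 and 0.602. Between arrays of different numbers and treatments the medians were -0.432 and -0.382, but the highest values were 0.394 and 0.348, so the ranges overlapped. Since every same-number value exceeded 0.1, numbers are treated as pairing the samples, which rests on these values and on the numbers that titles share. The main fit still carried no block, so its standard errors include differences between numbers. Counts from fits with the block are given beside its counts. The rule and the fit with the replicate block were tested on simulated data, and the main fit without a block was not. The simulated shifts by number were shared by all treatments, so they held no radiation difference between numbers. Alternatives covered normalization, offset, block, position, array weights, spread estimate, the samples fitted and the rule itself.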

Additional observations from a re-analysis of the deposited data

How the results depend on the processing

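The 8 counts of detected probes passing the adjusted p stayed at 0 in all 250 refits under 32 settings, with the replicate block (pairing by number) also at 0 in all 8. Added after seeing the data were the fits that leave out a number and use the block, those without the untreated and ligand arrays of number 2, those with the authors' normalized values (also at 0.5 log2 units in the number 3 check, as with runs centred), and the block in fits limited to the compared groups. Leaving out 1 sample or number moved the count at an unadjusted limma p under 0.05, beside like shares of all probes. For radiation averaged over the ligand it was lowest without number 2, at 4 (0.115%, against 0.148% of all probes). It was highest without number 3, at 147 (4.24%, against 4.59%). For the ligand against no treatment it lay between 0 and 17. The highest came without the untreated sample of number 2 (0.490%, against 0.457%). Of 120 refits of the 4 named probes, 117 kept the direction and stayed on the same side of the threshold. The radiation difference of obshum40K:A#13149 turned to -0.11 without number 2, with or without the block, and to -0.11 without the untreated and ligand arrays of number 2 with the block. Leaving out 1 sample or number gave between -0.11 and 2.63. The number of detected probes, 3468, depended on the rule. It was 7347 with the 90th percentile, 523 with the 99th, 15052 with the 95th percentile of the medians of the control sequences, 2196 with 1000 of the brightest per letter left out and 7674 with number 1 alone. Shares in the number 3 check rest on 16 probes or fewer at 1 log2 unit, and 9 of 40 alternatives left their 95% binomial interval. That interval takes probes as independent although they share arrays, so it measures no spread between samples. With 3 samples per group the median standard error of a log2 difference was 0.47 without the block and 0.225 with it.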
